A study of Mus musculus with 8 samples.

Results

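Expression of 10 genes of mitochondrial fusion, fission and mitophagy was measured across left ventricles of mice that had undergone transverse aortic constriction or a sham operation on either of a pair of diets. They were taken by name from a table of 49671 genes, in which all 10 were found, and all 10 passed the filter on low values. The fusion genes were Mfn1, Mfn2 and Opa1, the fission genes Dnm1l, Fis1 and Mff, and the mitophagy genes Pink1, Bnip3, Bnip3l and Fundc1. All animals were male C57BL/6N mice, 8 weeks old when the diets began. Transverse aortic constriction (TAC) narrows the aorta and loads the left ventricle with pressure. RNA of the ventricle was taken 4 weeks after surgery. The 4 groups were TAC on SFA-EAA, TAC on SFA, sham on SFA-EAA and sham on SFA, with 2 libraries each and 8 in all. SFA is a low-fat diet, and in SFA-EAA free essential amino acids took the place of 93.5% of the casein. The labels do not state that the pair of libraries in a group represents different mice. The p-values then reflect only how far these libraries spread, which may be technical.

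Mitochondria fuse and divide continuously, and damaged ones are removed by a selective autophagy called mitophagy. Mitofusins (Mfn1, Mfn2) join the outer membranes and OPA1 joins the inner ones, while the GTPase DRP1 (Dnm1l) is recruited by adaptors such as MFF to cut the organelle. PINK1 gathers on depolarised mitochondria and phosphorylates ubiquitin, which draws Parkin, whereas BNIP3, NIX (Bnip3l) and FUNDC1 sit in the outer membrane and bind LC3 proteins directly. The heart muscle cell is packed with mitochondria, and loss of mitofusins, DRP1 or PINK1 disturbs the mouse heart.

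Bnip3 is a textbook target of hypoxia-inducible factor (HIF), so the stretch of 250 bases before the transcript start was read for the 9 of 10 genes that the RefSeq promoter table (GRCm38.p6) holds, all but Bnip3l. It was searched on both strands for the HIF cores ACGTG and GCGTG, the oestrogen-related receptor half-site AAGGTCA, the NRF1 core GCGCATGC, the FOXO motif TGTTTAC and the cyclic AMP element TGACGTCA. The 3 stretches below are shown because they hold the matches in the genes that varied most with the operation or diet and the only NRF1 match. Capitals mark the matches, read 5′ to 3′ on the gene's strand.
Bnip3 (chr7:138909507-138909756, minus strand): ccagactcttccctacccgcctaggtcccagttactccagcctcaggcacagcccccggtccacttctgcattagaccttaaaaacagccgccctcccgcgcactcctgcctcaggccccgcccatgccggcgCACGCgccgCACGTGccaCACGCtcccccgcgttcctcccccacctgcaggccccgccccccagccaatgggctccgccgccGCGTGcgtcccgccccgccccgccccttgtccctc
Pink1 (chr4:138326297-138326546, minus strand): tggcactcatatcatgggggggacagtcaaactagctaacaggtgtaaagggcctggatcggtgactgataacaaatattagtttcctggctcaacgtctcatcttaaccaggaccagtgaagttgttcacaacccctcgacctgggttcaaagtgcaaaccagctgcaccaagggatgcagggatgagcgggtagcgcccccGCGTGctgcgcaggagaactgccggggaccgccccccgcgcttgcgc
Opa1 (chr16:29579084-29579333, plus strand): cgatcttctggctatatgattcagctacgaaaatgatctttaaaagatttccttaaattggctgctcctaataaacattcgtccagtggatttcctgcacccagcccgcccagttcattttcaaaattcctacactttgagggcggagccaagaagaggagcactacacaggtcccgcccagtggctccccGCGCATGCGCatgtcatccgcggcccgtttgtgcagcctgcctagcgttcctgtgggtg
Bnip3 had 2 matches to ACGTG, which are the 2 strands of a single CACGTG, and 3 to GCGTG, of which those on the other strand read CACGC. Pink1 and Mfn2 each had 1 GCGTG, and Opa1 had 2 overlapping matches to the NRF1 core, 1 on each strand. The other members with a window had no match. A single window was read per gene, although RefSeq held 3 for Mfn2 and 2 each for Dnm1l, Fis1 and Mff. The Fundc1 window lay within the gene coordinates given below, so the bases before that gene start were not read. Of all 32817 windows of this length, 38.6% held either HIF core, 16.6% the first spelled above and 28.1% the second. The NRF1 core was in 2.25%, the receptor half-site in 4.08%, the FOXO motif in 3.16% and the cyclic AMP element in 1.55%. A match describes the letters only.

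The deposited values were normalized by the authors and summed to between 5136441 and 6298743 per library, of which the 10 genes held 0.205% to 0.249%. Heart muscle markers were high in every library: the summed share of 10 cardiomyocyte genes was 5.732% to 8.224%. Some libraries stood apart. The atrial marker Myl7 reached 321.9 in the second TAC SFA library and 621.3 in the first sham SFA library, against 1.276 to 42.99 in the other 6. Mitochondrially encoded genes held 33.6% and 39.5% of all values in TAC SFA-EAA and 37.3% and 34.7% in sham SFA-EAA. On SFA they held less, at 27.7% and 22.1% after TAC and 29.2% and 30.3% in sham. Every share of values given here and below has these genes in its total. Values also followed the GC content of the transcript, and not evenly by group. The Spearman correlation of a gene's deviation with GC content, over 11265 genes, was 0.40 and -0.70 in the 2 TAC SFA-EAA libraries, 0.32 and 0.45 in TAC SFA, -0.59 and -0.40 in sham SFA-EAA, and 0.46 and 0.49 in sham SFA. The first library labelled TAC SFA-EAA thus ran with the SFA libraries and against its own group. The files do not show whether this touches its label, so TAC SFA-EAA values hold for the libraries as labelled. Values are as deposited unless they are called GC-corrected, which means that each library's GC trend was removed.

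Per length, the levels of the 10 genes spanned more than an order of magnitude and kept nearly the same order in every library. Pink1 was highest, at 1204 ± 268 per kb of gene length (deposited value divided by length, mean ± SD, n = 8 libraries), followed by Mfn2 at 780.0 ± 87.2 and Bnip3 at 411.1 ± 96.8. Mfn1 (302.5 ± 26.6), Fis1 (233.0 ± 29.1), Dnm1l (175.1 ± 25.4) and Opa1 (145.1 ± 20.6) came next. Bnip3l (80.17 ± 9.72), Mff (68.34 ± 11.3) and Fundc1 (53.51 ± 10.8) were lowest. Neighbours in this order overlapped in their ranges over libraries, except Mfn2 above Bnip3 and Opa1 above Bnip3l. Within a library the order was firmer: each gene was above the next in 8 of 8 libraries, and in 7 of 8 for Bnip3 above Mfn1 and Fis1 above Dnm1l.

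**Figure D1:**
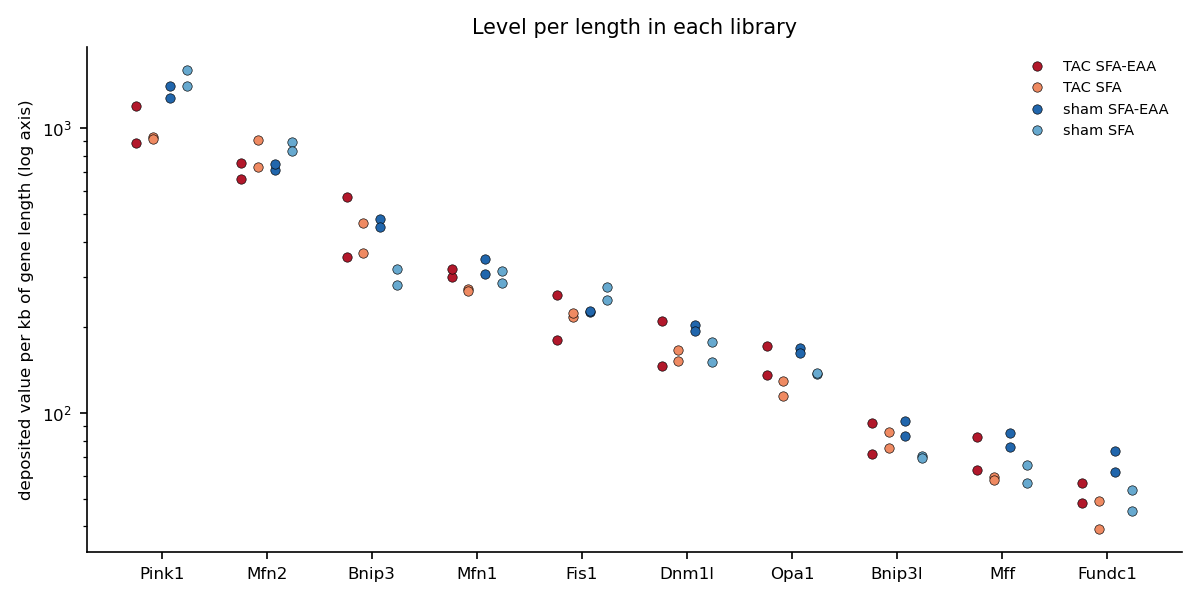
Deposited value per kb of gene length (vertical log axis) for each of the 10 genes, ordered by mean, with 1 point per library coloured by group. Pink1 and Mfn2 stand highest, and Fundc1, with a mean of 53.51, stands lowest.

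Tests ran over the 16432 genes that reached 1 in 2 or more libraries, with limma on log2(value + 1), and p-values were adjusted by Benjamini-Hochberg over all of them. A gene passed at an adjusted p under 0.05. As deposited, 0 of the 10 genes passed in TAC against sham under SFA (limma), where 1.25% of all genes did, and 1 of the 10 had an unadjusted p under 0.05. The other 2-group comparisons also gave 0 of 10 passing in limma. There 0.0122% of all genes passed for TAC against sham under SFA-EAA, 0% for SFA-EAA against SFA in sham, and 0.0487% for SFA-EAA against SFA after TAC. Members with an unadjusted p under 0.05 numbered 1, 3 and 1 in these comparisons. In sham, 2437 of all genes were under that unadjusted p. Averaged over the diets, 1 of 10 passed for TAC against sham, namely Pink1, which fell; 2.11% of all genes passed there, and 0.73% fell. Averaged over the operations, 0 of 10 passed in limma for SFA-EAA against SFA, where 1.21% of all genes did, and 5 had an unadjusted p under 0.05. The interaction of operation and diet gave 0 of 10 in limma, 0 with an unadjusted p under 0.05, and 0% of all genes (902 genes with an unadjusted p under 0.05). Comparisons that share a group share its libraries.

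**Figure D2:**
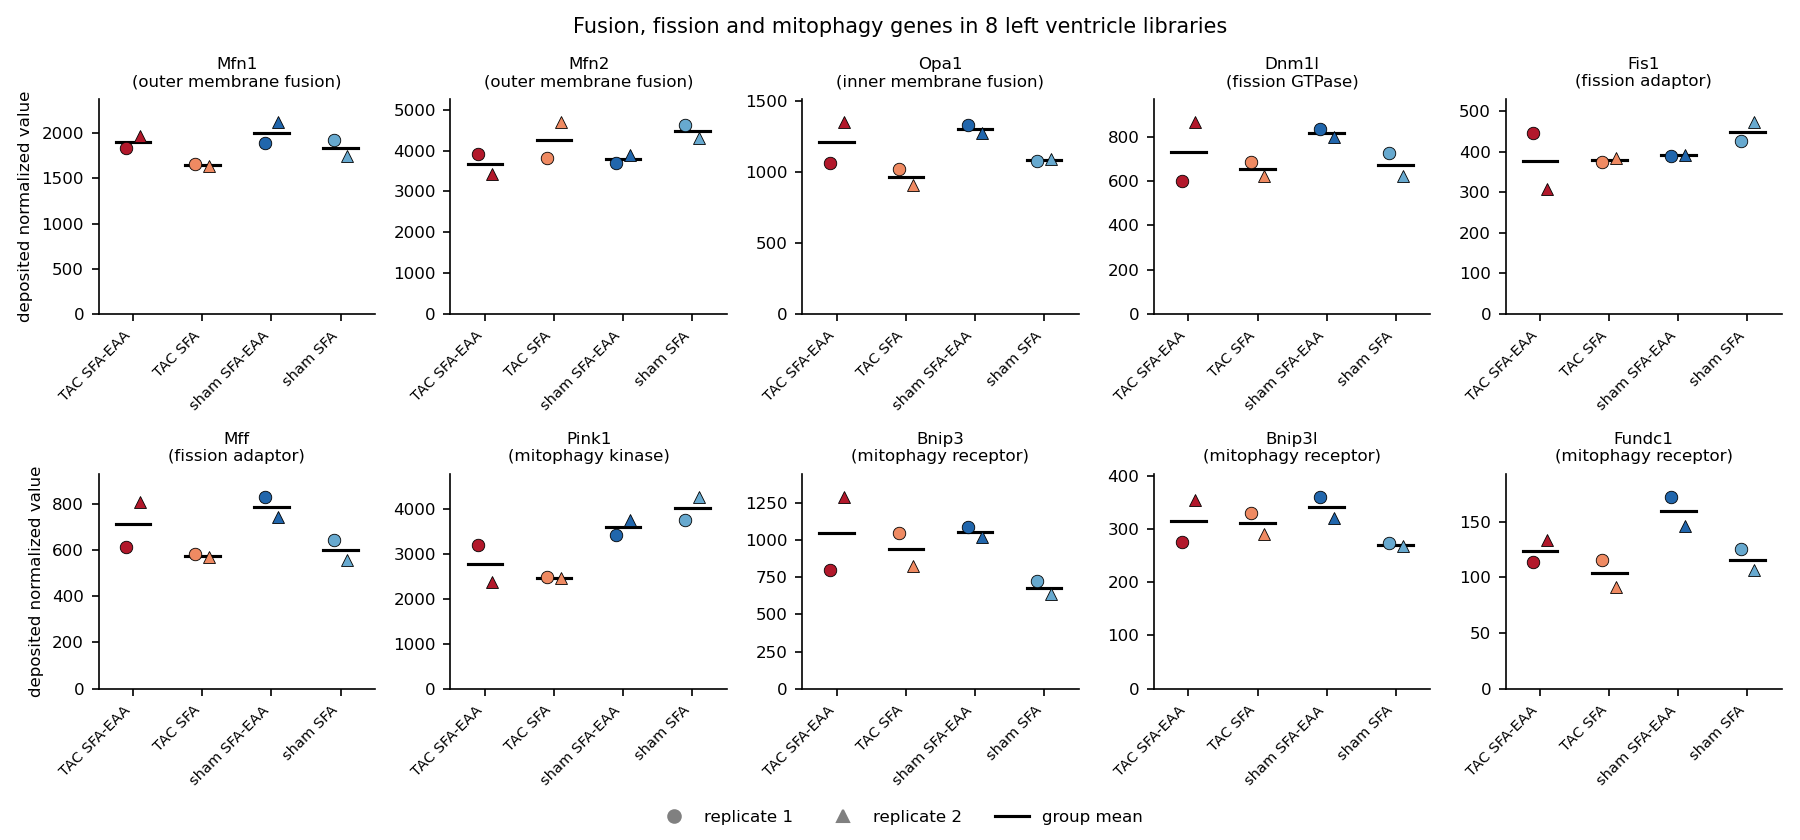
Deposited normalized value (vertical axes, each from 0) of the 10 genes in the 4 groups, with 1 symbol per library and a bar at the group mean. All 4 TAC libraries lie below all 4 sham libraries for Pink1, and the 2 TAC SFA-EAA libraries are far apart for Bnip3, at 801.5 and 1295.

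The fusion genes differed little between the operations, and none passed the test. Mfn1 (chromosome 3, 32529465 to 32579239, plus strand) had 1836 and 1966 in TAC SFA-EAA, 1663 and 1640 in TAC SFA, 1888 and 2125 in sham SFA-EAA, and 1925 and 1753 in sham SFA. Its TAC SFA libraries were below both sham SFA libraries, with a log2 fold change of -0.15 ± 0.11 (SE) and an adjusted p of 0.653 by limma. Mfn2 (chromosome 4, 147873599 to 147904704, minus strand) had 3910 and 3440 in TAC SFA-EAA, 3811 and 4704 in TAC SFA, 3692 and 3903 in sham SFA-EAA, and 4630 and 4318 in sham SFA. TAC and sham overlapped on both diets for this gene, at -0.05 under SFA-EAA and -0.08 under SFA. Opa1 (chromosome 16, 29579334 to 29654884, plus strand) had 1068 and 1355 in TAC SFA-EAA, 1022 and 906.4 in TAC SFA, 1336 and 1280 in sham SFA-EAA, and 1081 and 1091 in sham SFA. Both TAC SFA libraries were under both sham SFA libraries (log2 fold change -0.17, limma adjusted p = 0.673), while under SFA-EAA the operations overlapped (-0.12). The 95% intervals for TAC against sham under SFA ran from -0.41 to 0.10 for Mfn1, -0.39 to 0.23 for Mfn2 and -0.48 to 0.13 for Opa1. GC-corrected, the differences under SFA were -0.15, -0.08 and -0.17, and those under SFA-EAA -0.06, -0.09 and -0.06.

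By diet, the fusion genes went different ways without passing the test. Opa1 was higher in both SFA-EAA groups than in their SFA counterparts with no overlap, at 0.27 in sham and 0.32 after TAC (limma adjusted p = 0.375 and 0.308). Of all genes, 27.6% in sham and 21.7% after TAC were higher without overlap, and the share in both was not computed. Mfn1 was at 0.13 and 0.20, and Mfn2 at -0.24 and -0.21. Per length, Mfn2 stood over Mfn1 by 2.51 and 2.06 times in TAC SFA-EAA, 2.70 and 3.38 times in TAC SFA, 2.30 and 2.16 times in sham SFA-EAA, and 2.83 and 2.90 times in sham SFA. These ratios were lower in each SFA-EAA library than in every SFA library. They were not GC-corrected, although GC content was 53.1% in Mfn2 and 45.9% in Mfn1. The share of other gene pairs with such an order was not computed. After GC correction the diet differences in sham shrank to 0.06 for Opa1, 0.00 for Mfn1 and -0.07 for Mfn2, and those after TAC to 0.16, 0.09 and -0.08.

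The fission genes did not pass any comparison of all libraries either. Dnm1l (chromosome 16, 16312235 to 16359030, minus strand), the GTPase that constricts the organelle, had 598.3 and 866.3 in TAC SFA-EAA, 683.2 and 623.3 in TAC SFA, 833.7 and 799.8 in sham SFA-EAA, and 727.3 and 620.9 in sham SFA. TAC and sham overlapped on both diets, at -0.18 under SFA-EAA and -0.04 under SFA. Mff (chromosome 1, 82724890 to 82752394, plus strand), an adaptor of DRP1, had 613.6 and 806.3 in TAC SFA-EAA, 580.6 and 568.6 in TAC SFA, 830.0 and 740.1 in sham SFA-EAA, and 641.2 and 553.9 in sham SFA. Here too the operations overlapped, at -0.16 under SFA-EAA and -0.05 under SFA. Fis1 (chromosome 5, 136953275 to 136966234, plus strand), an outer membrane adaptor, had 445.2 and 309.2 in TAC SFA-EAA, 373.8 and 385.6 in TAC SFA, 389.2 and 392.1 in sham SFA-EAA, and 425.7 and 473.4 in sham SFA. It was lower in both TAC SFA libraries than in both sham SFA libraries, with a log2 fold change of -0.24 (95% interval -0.62 to 0.14, limma adjusted p = 0.623), and at -0.07 with overlap under SFA-EAA. GC-corrected, TAC against sham was -0.03 for Dnm1l, -0.03 for Mff and -0.23 for Fis1 under SFA, and -0.09, -0.02 and -0.12 under SFA-EAA.

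By diet in sham, the fission genes did not overlap between the groups as deposited, like 27.6% of all genes that were higher and 27.6% that were lower without overlap, and after GC correction they lay within 0.03 of 0. Dnm1l and Mff were higher in both sham SFA-EAA libraries than in both sham SFA libraries, by 0.28 and 0.39 on the log2 scale, and Fis1 was lower, at -0.20 (limma adjusted p = 0.462, 0.299 and 0.600). After TAC the differences were 0.14, 0.29 and -0.03, and only Mff kept its groups apart among these 3. The 2 TAC SFA-EAA libraries stood on opposite sides here. The first had the lowest Dnm1l of all 8 libraries, and the second had the lowest Fis1 and the highest Dnm1l of all 8. GC correction brought the sham differences to -0.03 for Dnm1l, -0.03 for Mff and 0.03 for Fis1, and those after TAC to -0.09, -0.02 and 0.14. Summed per length, the fusion genes exceeded the fission genes by 2.54 and 2.44 times in TAC SFA-EAA, 2.56 and 2.96 times in TAC SFA, 2.31 and 2.53 times in sham SFA-EAA, and 2.74 and 2.60 times in sham SFA. Those ratios overlapped between TAC and sham on both diets.

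Pink1, the mitophagy kinase (chromosome 4, 138313409 to 138326307, minus strand), was lower after TAC. It had 3196 and 2376 in TAC SFA-EAA and 2487 and 2459 in TAC SFA, against 3422 and 3767 in sham SFA-EAA and 3762 and 4282 in sham SFA. All 4 TAC libraries were below all 4 sham libraries, an order that 2.75% of all genes showed in this direction. Averaged over the diets it fell by 0.54 on the log2 scale (SE 0.11, 95% interval -0.78 to -0.30), to 0.69 times the sham level, with an adjusted p of 0.0415 by limma. Under SFA the difference was -0.70 (0.62 times, 95% interval -1.04 to -0.35, limma adjusted p = 0.0697), and under SFA-EAA -0.38 (0.77 times, 95% interval -0.73 to -0.04, limma adjusted p = 0.537). The interaction was 0.32 (95% interval -0.17 to 0.80, limma adjusted p = 0.913), so a difference in the response between the diets was not detected.

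The averaged call on Pink1 rested on a thin margin as deposited. It held without either TAC SFA-EAA library (-0.65, adjusted p = 0.00209, without replicate 1 and -0.43, adjusted p = 0.0136, without replicate 2, limma). It was lost when any of the other 6 was left out, with adjusted p of 0.116 without TAC SFA replicate 1, 0.185 without TAC SFA replicate 2, 0.127 and 0.181 without sham SFA-EAA replicate 1 or 2, and 0.133 and 0.239 without sham SFA replicate 1 or 2 (limma, -0.59 to -0.49). It was also lost with a pseudocount of 0.25 (adjusted p = 0.0508), quantile normalization (0.0505), no filter (0.105) and a replicate block (0.0894). Without both libraries with high Myl7 the averaged value was -0.58 (limma adjusted p = 0.482, with 0 genes in all called and 1363 at an unadjusted p under 0.05). On GC-corrected values Pink1 was at -0.60 (95% interval -0.79 to -0.42, limma adjusted p = 0.00185), where 6.14% of all genes passed, and it passed with each of the 8 libraries left out (-0.69 to -0.51). On those values the TAC and sham libraries overlapped when the diets were pooled. Under SFA alone it fell by 0.69 (limma adjusted p = 0.00729), where 4.95% of all genes passed and 2.39% fell, a call lost without TAC SFA replicate 2 (-0.63, adjusted p = 0.0767) or sham SFA replicate 2 (-0.62, adjusted p = 0.119). Under SFA-EAA it was -0.51 (limma adjusted p = 0.127, with 0.219% of all genes passing), but passed at -0.70 without TAC SFA-EAA replicate 2 (adjusted p = 0.0214). Without both libraries with high Myl7, 1 library a group remained under SFA, and Pink1 was at -0.78 (limma adjusted p = 0.864).

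The diet difference of Pink1 depended on the GC correction, which turned its sign in sham and raised it after TAC. Pink1 has the highest GC content of the 10, at 59.0%. As deposited, SFA-EAA against SFA was -0.16 in sham and 0.16 after TAC, with overlapping libraries in both. GC-corrected, it was 0.43 in sham (limma adjusted p = 0.259, with 0.0304% of all genes passing, but 0.0419 and 0.0405 without TAC SFA-EAA replicate 1 or 2) and 0.61 after TAC (95% interval 0.35 to 0.87, limma adjusted p = 0.0311), where 1.69% of all genes passed. The call after TAC was kept without TAC SFA-EAA replicate 1 (0.80, adjusted p = 0.00449) and lost with any of the other 7 libraries left out (adjusted p 0.0501 to 0.248, 0.43 to 0.68). A replicate block beside the GC correction gave an adjusted p of 0.0505. Averaged over the operations the GC-corrected difference was 0.52 (limma adjusted p = 0.011, 2.67% of all genes passed). It was lost without TAC SFA replicate 2 (0.49, adjusted p = 0.0512), sham SFA-EAA replicate 1 (0.50, 0.0672) or replicate 2 (0.54, 0.0536), or sham SFA replicate 1 (0.48, 0.110). Atrial markers were lower on SFA-EAA without passing: over 5 of them the median log2 fold change was -3.27 in sham and -3.53 after TAC (0 passing in limma, 1 and 3 at an unadjusted p under 0.05). Much of this lay in 1 library of each SFA group, since Myl7 had 3.067 and 1.276 in TAC SFA-EAA against 11.84 and 321.9 in TAC SFA, and 42.99 and 2.709 in sham SFA-EAA against 621.3 and 35.78 in sham SFA. Their part in the diet result was not tested.

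Genes of oxidative phosphorylation were mostly negative for TAC against sham, as Pink1 was, though few passed the test. Under SFA, the median log2 fold change of TAC against sham was -0.43 over 80 nuclear-encoded genes of oxidative phosphorylation, 79 of them negative and 1 passing (1.25% of all genes passed), and -0.30 over the 10 cardiomyocyte markers, 9 negative and 0 passing in limma (2 with an unadjusted p under 0.05), against 0.01 over all genes. Under SFA-EAA those medians were -0.17 and -0.02. The summed share of the cardiomyocyte markers was 7.576% and 5.732% in TAC SFA-EAA, 7.201% and 7.964% in TAC SFA, 6.390% and 6.865% in sham SFA-EAA, and 8.224% and 7.981% in sham SFA. The summed share of 10 fibroblast markers was 0.171% and 0.156% in TAC SFA-EAA, 0.262% and 0.427% in TAC SFA, 0.165% and 0.162% in sham SFA-EAA, and 0.224% and 0.192% in sham SFA. The summed share of 10 macrophage markers was 0.029% and 0.037% in TAC SFA-EAA, 0.043% and 0.039% in TAC SFA, 0.020% and 0.022% in sham SFA-EAA, and 0.031% and 0.023% in sham SFA. All 10 macrophage markers were positive for TAC on both diets, with medians of 0.55 under SFA and 0.72 under SFA-EAA, and 2 passed when averaged over the diets (2.11% of all genes passed). None of these 30 markers was at 0 in any library. Their part in the Pink1 result was not tested, and in whole tissue fewer cells of a type and less RNA per cell cannot be told apart. The genes whose log2 values over the 8 libraries were most like those of Pink1 were Slc20a2 (Pearson r = 0.990), Mrpl37 (0.983) and Cisd1 (0.980), and after GC correction Mipep (0.987) and Mapk14 (0.986). These values share libraries and the GC trend and are a description.

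The mitophagy receptors passed in no comparison of all libraries, and Bnip3 and Bnip3l were higher, not lower, in TAC SFA than in sham SFA. Bnip3 (chromosome 7, 138890836 to 138909519, minus strand) had 801.5 and 1295 in TAC SFA-EAA, 1049 and 828.8 in TAC SFA, 1090 and 1023 in sham SFA-EAA, and 723.4 and 638.2 in sham SFA. The sham SFA libraries were the lowest of the 8, below both TAC SFA and both sham SFA-EAA libraries. The share of all genes with a whole group lowest or highest was not computed. TAC against sham was 0.46 under SFA (1.37 times, 95% interval -0.02 to 0.93, limma adjusted p = 0.402) and -0.05 under SFA-EAA with overlap. SFA-EAA against SFA was 0.64 in sham (1.55 times, 95% interval 0.16 to 1.11, limma adjusted p = 0.272) and 0.13 after TAC with overlap. The interaction was -0.51 (95% interval -1.18 to 0.17, limma adjusted p = 0.909). The diet difference in sham stayed at 0.64 when either TAC SFA-EAA library was left out. GC-corrected, TAC against sham under SFA stayed at 0.47 (limma adjusted p = 0.0639) and the diet difference in sham was 0.35 (adjusted p = 0.360). On those values TAC against sham under SFA was 0.46 without TAC SFA-EAA replicate 1 and 0.47 without replicate 2.

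Bnip3l, which encodes NIX (chromosome 14, 66985239 to 67008877, minus strand), had 276.1 and 355.0 in TAC SFA-EAA, 330.3 and 290.8 in TAC SFA, 360.8 and 321.5 in sham SFA-EAA, and 272.7 and 267.8 in sham SFA. As for Bnip3, the sham SFA libraries were the lowest of the 8, but by a narrow margin, with 272.7 against 276.1 in TAC SFA-EAA. The differences were 0.20 for TAC under SFA, -0.12 for TAC under SFA-EAA, 0.33 for diet in sham and 0.01 for diet after TAC (limma adjusted p = 0.675, 0.872, 0.346 and 0.978). GC-corrected they were 0.21, -0.04, 0.06 and -0.19. Fundc1 (chromosome X, 17556564 to 17572325, minus strand) had 113.9 and 134.1 in TAC SFA-EAA, 115.8 and 91.83 in TAC SFA, 172.8 and 146.7 in sham SFA-EAA, and 125.9 and 106.4 in sham SFA. Both sham SFA-EAA libraries exceeded all the others, an order whose share over all genes was likewise not computed. TAC against sham was -0.36 under SFA-EAA with no overlap and -0.16 under SFA, and SFA-EAA against SFA was 0.46 in sham with no overlap and 0.26 after TAC (limma adjusted p = 0.637, 0.795, 0.319 and 0.549). GC-corrected they were -0.25, -0.15, 0.08 and -0.02, and the sham groups of the diets then overlapped.

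As deposited, the balance of Pink1 to Bnip3 joined both movements. The ratios here were not GC-corrected, although GC content was 59.0% in Pink1, 41.6% in Bnip3 and 41.9% in Bnip3l. GC-corrected, Pink1 and Bnip3 were at 0.43 and 0.35 by diet in sham, and at -0.69 and 0.47 for TAC under SFA. Per length, Pink1 exceeded Bnip3 by 3.38 and 1.55 times in TAC SFA-EAA, 2.01 and 2.51 times in TAC SFA, 2.66 and 3.12 times in sham SFA-EAA, and 4.41 and 5.69 times in sham SFA. Under SFA both TAC libraries were below both sham libraries, which follows from the separate Pink1 and Bnip3 values and is no further result. Under SFA-EAA the first TAC library was above both sham libraries and the second below. Bnip3 and Bnip3l kept a steadier ratio, at 4.95 and 6.22 in TAC SFA-EAA, 5.41 and 4.86 in TAC SFA, 5.15 and 5.42 in sham SFA-EAA, and 4.52 and 4.06 in sham SFA.

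**Figure D3:**
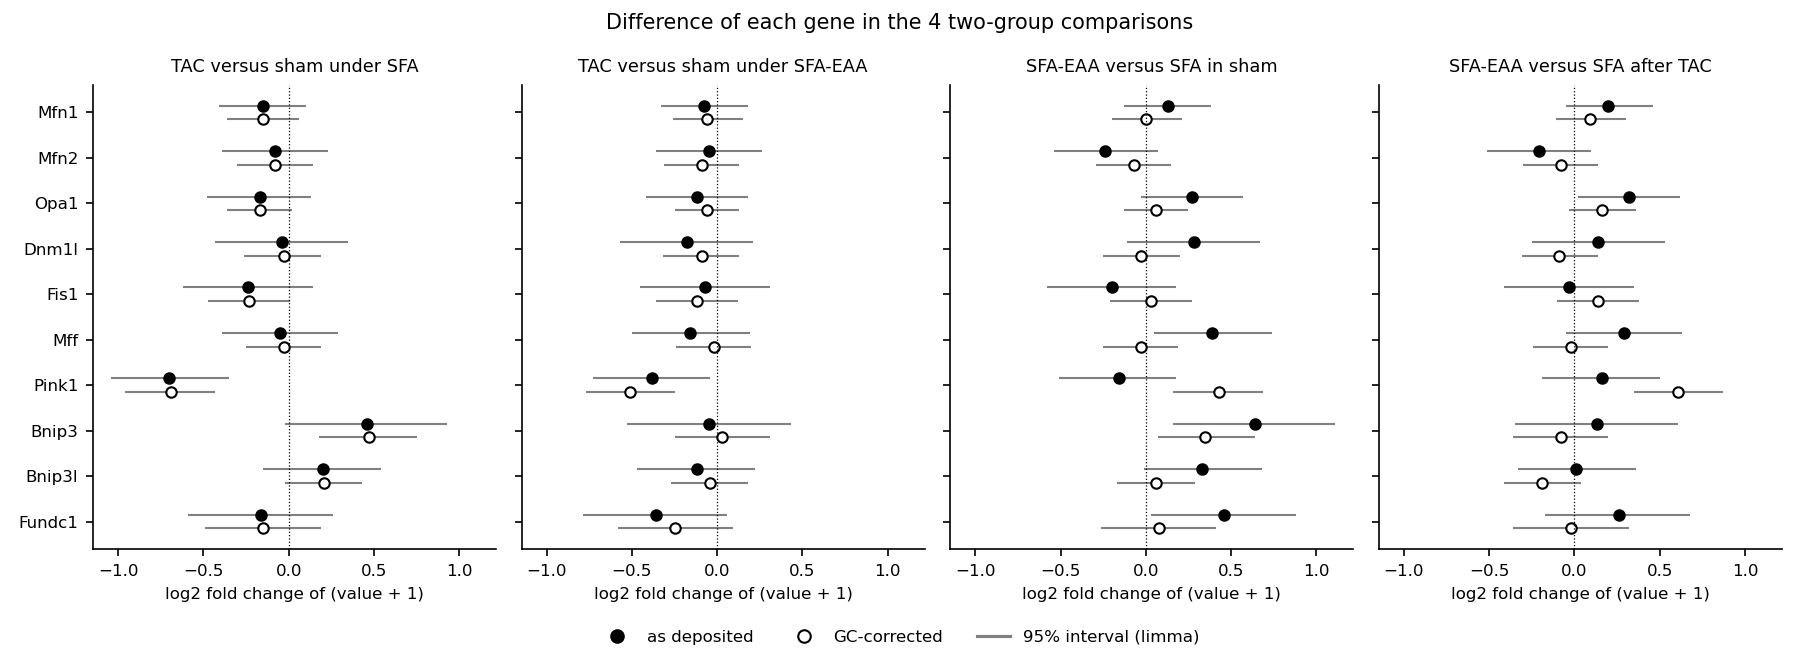
Log2 fold change of value + 1 (horizontal axis) with its 95% interval from limma for the 10 genes in the 4 comparisons of 2 groups, as deposited (filled) and GC-corrected (open). Pink1 stands left of 0 in both TAC panels, at -0.70 under SFA, and in the diet panels its filled and open points lie apart, at 0.16 and 0.61 after TAC.

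In groups without overlap, TAC under SFA had 4 members lower (Mfn1, Opa1, Fis1, Pink1) and 2 higher (Bnip3, Bnip3l), where 23.1% of all genes were lower and 24.3% higher without overlap. Of the 10 log2 fold changes 8 were negative there, and 51.1% of all genes were positive. TAC under SFA-EAA had Pink1 and Fundc1 lower and none higher (18% of all genes lower, 18.5% higher). All 10 log2 fold changes were negative there, from -0.38 to -0.05, against 50% of all genes positive, and the median was -0.12 against 0 over all genes. After GC correction 9 of the 10 were negative, with a median of -0.08 against -0.01 over all genes. By diet in sham, 6 members were higher (Opa1, Dnm1l, Mff, Bnip3, Bnip3l, Fundc1) and 2 lower (Mfn2, Fis1), where 27.6% of all genes were higher and 27.6% lower. Positive differences numbered 7 of 10 in sham, against 48.4% of all genes, and 8 of 10 after TAC, against 47.1%. After TAC 3 were higher (Mfn1, Opa1, Mff) and none lower (21.7% and 21.1% of all genes). The median member stood at 0.27 in sham and 0.15 after TAC as deposited, against -0.01 and -0.03 over all genes, and at 0.04 and -0.02 after GC correction.

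The order of the diet differences followed base composition. The longest transcript of the 10 genes held from 37.3% GC in Mff to 59.0% in Pink1, and 7 lay under the median of 49.6% over 11387 genes with a mean of at least 10. In sham, the 7 genes under that median were the 7 with positive differences between the diets, and Mfn2 (53.1%), Fis1 (54.4%) and Pink1 had negative ones. Across genes, the Spearman correlation of the diet difference with GC content was -0.84 over the 10 members and -0.69 over the 11387 genes in sham, and -0.44 and -0.54 after TAC. For TAC against sham it was -0.60 and 0.00 under SFA, and 0.24 and 0.24 under SFA-EAA. Genes are not independent replicates, so these coefficients are a description. The plot of fold change against GC content shows that Bnip3 lay above genes of like GC content in sham, and that Pink1 lay below them in both comparisons of TAC with sham.

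**Figure D4:**
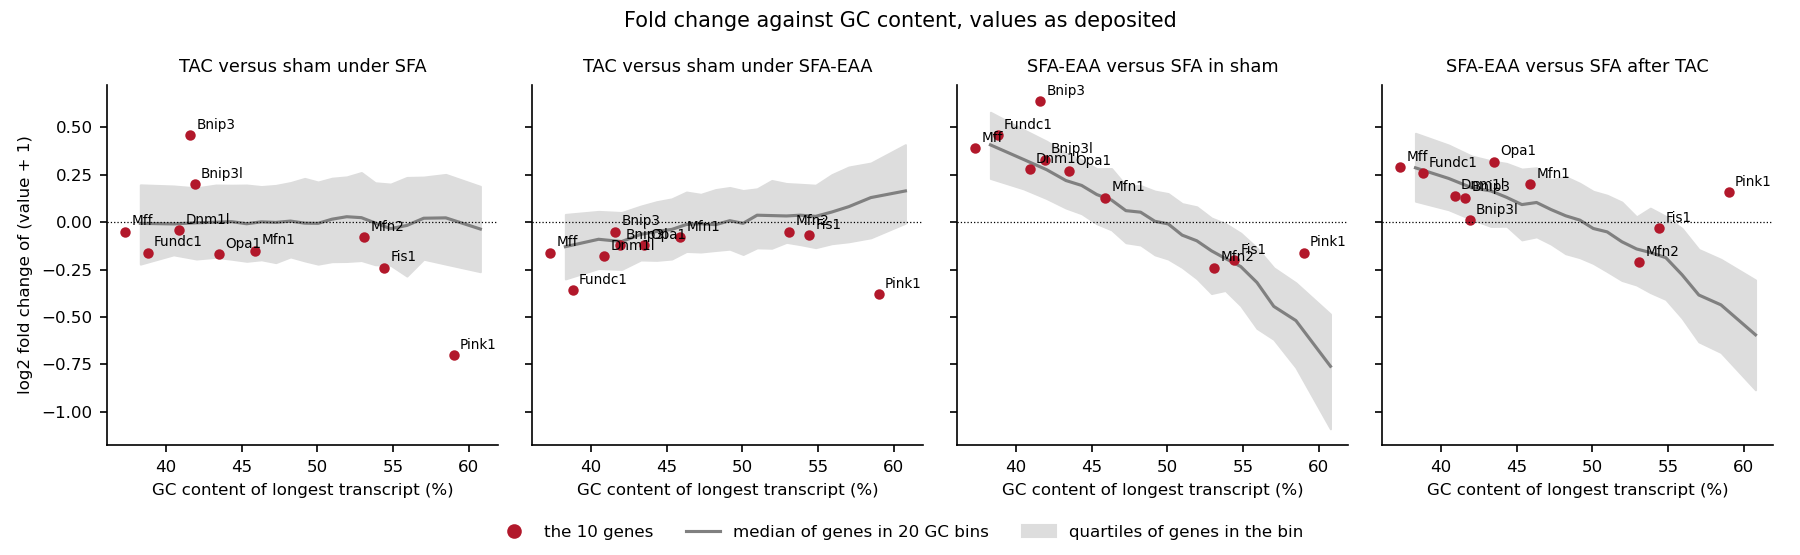
Log2 fold change of value + 1, as deposited (vertical axis), against GC content of the longest transcript (horizontal axis) for the 10 genes (points), with the median and quartiles of all genes with a mean of at least 10 in bins of GC content (line and band). The line slopes down in both diet panels and is nearly flat for TAC under SFA, where Pink1, at 59.0% GC, lies at -0.70.

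Beyond the 10 genes, 83 other genes of fusion, fission, mitophagy and mitochondrial transport were tested, and 0 passed as deposited in each of the 4 comparisons of 2 groups (limma). Unadjusted p-values under 0.05 numbered 11 for TAC under SFA, 1 for TAC under SFA-EAA, 17 for diet in sham and 13 for diet after TAC, against 2197, 1408, 2437 and 2476 of all 16432 genes. Regulators of outer membrane fusion (7 genes) had a median of -0.18 for TAC under SFA and inner membrane fusion with OPA1 proteolysis (14 genes) -0.21, against 0.01 over all genes. In the first list 5 of 7 were negative and in the second 12 of 14. Miga1, an outer membrane fusion factor, had 79.73 and 62.03 in TAC SFA against 99.78 and 99.97 in sham SFA (-0.50, limma adjusted p = 0.263). Prohibitin (Phb) had 814.0 and 716.8 in TAC SFA against 981.7 and 953.0 in sham SFA (-0.34, adjusted p = 0.255). Both genes were lower in every TAC SFA library than in sham SFA without passing.

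Fission regulators (13 genes) had a median of -0.04 for TAC under SFA, the PINK1 and Parkin list (24 genes) 0.00, receptor mitophagy with LC3 proteins (20 genes) -0.06 and mitochondrial transport (6 genes) 0.12. On GC-corrected values 3 of the 83 passed under SFA, a share no higher than the 4.95% of all genes that passed. The fission factor Mtfp1 had 600.7 and 475.0 in TAC SFA against 760.5 and 788.0 in sham SFA, and fell by 0.52 (limma adjusted p = 0.0308). Rhot2, which encodes the mitochondrial transport GTPase MIRO2, had 307.3 and 334.8 in TAC SFA against 450.8 and 444.8 in sham SFA, and fell by 0.47 (adjusted p = 0.0198). The motor heavy chain Kif5b had 940.1 and 1141 in TAC SFA against 639.2 and 599.8 in sham SFA, and rose by 0.75 (adjusted p = 0.0137). As deposited these 3 stood at -0.53, -0.48 and 0.74 (adjusted p = 0.154, 0.222 and 0.174). Averaged over the diets, the same 3 of the 83 passed after GC correction, where 6.14% of all genes did. They stood there at -0.36, -0.27 and 0.53 (limma adjusted p = 0.0303, 0.047 and 0.0114). Phb, 1 of the 83, passed on GC-corrected values for SFA-EAA against SFA after TAC, at 0.55 (limma adjusted p = 0.0326). That share was no higher than the 1.69% of all genes that passed. Averaged over the operations, 4 of the 83 passed after GC correction, all higher on SFA-EAA than on SFA, where 2.67% of all genes passed: Phb at 0.49, the cristae gene Apoo at 0.33, the autophagy receptor Optn at 0.37 and the LC3 gene Map1lc3a at 0.55 (limma adjusted p = 0.00976, 0.0374, 0.0337 and 0.0165). Parkin itself, listed as Park2, was low, at 23.86 to 48.72 in the 8 libraries.

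The other genes with the smallest p-values in each list did not pass for TAC against sham, and their values are log2 fold changes as deposited. Under SFA, the outer membrane fusion factor Miga2 was at -0.33, the cristae organiser Chchd3 at -0.30, the DRP1-regulating anchor Akap1 at -0.30, the outer membrane channel Vdac3 at -0.30, the mitophagy phosphatase Pptc7 at -0.29 and the autophagy initiation factor Atg13 at 0.39. These 6 had limma adjusted p between 0.213 and 0.523. Under SFA-EAA, Miga1 had 97.45 and 86.59 in TAC SFA-EAA against 123.7 and 121.8 in sham SFA-EAA (-0.41, limma adjusted p = 0.572), so that it was below sham without overlap on both diets. GC-corrected it was at -0.35 under SFA-EAA (limma adjusted p = 0.502). Miga1 was picked by its small p-value, and the share of all genes below sham on both diets was not computed. The protease genes Yme1l1 and Oma1, whose products cut OPA1, were at -0.37 and -0.21, Slc25a46 at -0.29, Ppp3cb at -0.29, Vdac3 at -0.24, Rb1cc1 at -0.26, Mtfr1l at 0.16, Trak1 at 0.13, Kif5b at 0.23 and Atg7 at 0.31. Those 10 had limma adjusted p between 0.615 and 0.872.

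By diet, the genes with the smallest p-values in each list did not pass, and in sham their differences shrank with GC correction. Yme1l1 had 658.5 and 572.1 in sham SFA-EAA against 364.1 and 357.8 in sham SFA, a log2 fold change of 0.76 as deposited and 0.36 GC-corrected (limma adjusted p = 0.267 and 0.272). The mitophagy receptor Fkbp8 had 312.2 and 383.3 in sham SFA-EAA against 602.1 and 650.4 in sham SFA, at -0.85 as deposited and 0.09 GC-corrected. Dynamin 2 (Dnm2) went to -0.21 from -0.64, Rb1cc1 to 0.17 from 0.54, Slc25a46 to 0.16 from 0.47, Trak1 to -0.07 from -0.46, Ube2n to 0.09 from 0.41, Miga2 to 0.15 from -0.38, Rhot2 to -0.09 from -0.37 and Ppp3cb to -0.02 from 0.32. Apoo stayed nearer its deposited value, at 0.30 from 0.44, and Tbk1 at 0.44 from 0.58. After TAC, Chchd3 had 2304 and 2537 in TAC SFA-EAA against 1859 and 1610 in TAC SFA (0.48 as deposited, 0.43 GC-corrected, limma adjusted p = 0.150 and 0.0648). Optn had 525.4 and 601.4 in TAC SFA-EAA against 416.4 and 413.5 in TAC SFA (0.44 and 0.47, limma adjusted p = 0.174 and 0.0602). In the same comparison Apoo was at 0.47 as deposited and 0.35 GC-corrected, Pptc7 at 0.32 and 0.29, Miga1 at 0.38 and 0.21, Dnm2 at -0.51 and -0.17, Rb1cc1 at 0.41 and 0.14, Trak1 at -0.42 and -0.11, Slc25a46 at 0.36 and 0.13, Vdac3 at 0.35 and 0.08, Sh3glb1 at 0.28 and 0.11, and Rhot1 at 0.16 and 0.01.

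Targets of hypoxia-inducible factor lay on both sides of 0. Of 12 tested, 9 were positive for TAC under SFA and 0 passed as deposited (limma, 2 with an unadjusted p under 0.05), with a median of 0.13, and 4 of 12 were positive by diet in sham, with a median of -0.12. The collagen prolyl hydroxylase P4ha1 had 500.0 and 521.3 in TAC SFA against 290.0 and 269.6 in sham SFA, a log2 difference of 0.87 (limma adjusted p = 0.109 as deposited, 0.0117 GC-corrected). In TAC SFA-EAA it had 192.0 and 322.9, so that SFA-EAA against SFA after TAC was -1.03 (limma adjusted p = 0.124 as deposited) and -1.14 after GC correction (adjusted p = 0.00847). The oxygen sensor Egln1 had 1915 and 1816 in TAC SFA against 2510 and 2391 in sham SFA (-0.39, limma adjusted p = 0.139). Vegfa was at 0.39 for TAC under SFA-EAA and -0.36 by diet in sham, Ndrg1 at -0.41 for TAC under SFA-EAA and -0.49 by diet after TAC, and Ddit4 at -1.45 by diet in sham (limma adjusted p from 0.228 to 0.542). GC-corrected these were 0.36 and -0.30 for Vegfa, -0.44 and -0.47 for Ndrg1, and -0.96 for Ddit4. Averaged over the diets after GC correction, Egln1 passed at -0.32 and P4ha1 at 0.55 (limma adjusted p = 0.036 and 0.0169), where 6.14% of all genes passed. Averaged over the operations P4ha1 passed at -0.83 (limma adjusted p = 0.00644), where 2.67% did. The GC-corrected shares of all genes passing were 4.95% for TAC under SFA and 1.69% for diet after TAC. P4ha1 is also a gene of collagen-making cells. The fibroblast marker shares given above were highest in TAC SFA, and their part in the P4ha1 values was not tested.

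**Figure D5:**
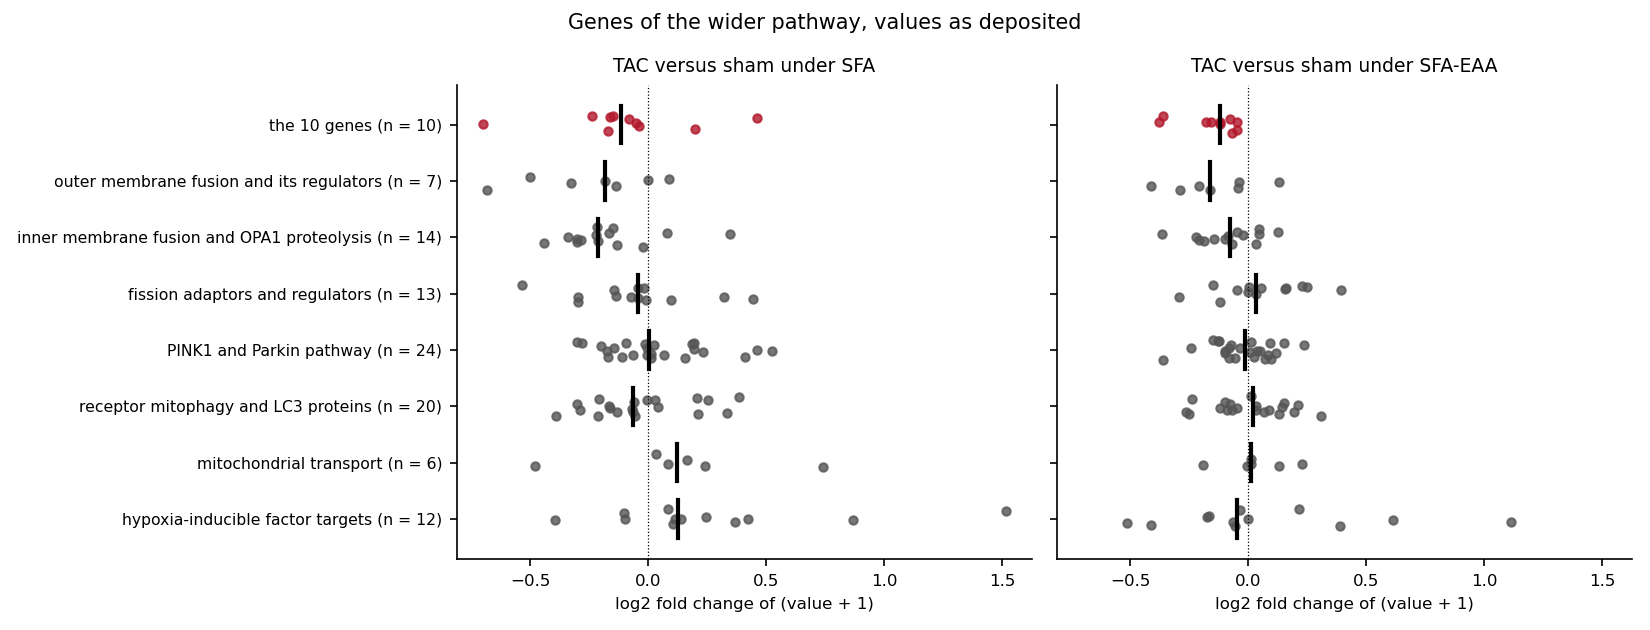
Log2 fold change of value + 1, as deposited (horizontal axis), of TAC against sham under SFA-EAA and SFA for the 10 genes and for 7 lists of other pathway genes (rows), with 1 point per gene and a bar at the median. Medians lie between -0.21 and 0.13 under SFA; the single points far from 0 under SFA include Pink1 at -0.70 and P4ha1 at 0.87.

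Over the 8 libraries some of the 10 genes varied together. As deposited, Bnip3 and Bnip3l had a Pearson r of 0.95 on log2 values, Dnm1l and Mff 0.92, Opa1 and Mff 0.91, and Fis1 and Bnip3 -0.90. After GC correction Bnip3 and Bnip3l were at 0.65, Dnm1l and Mff at 0.45, Opa1 and Mff at -0.26, and Fis1 and Bnip3 at -0.63. The highest was then Pink1 with Opa1 at 0.95. Points of these correlations share groups and libraries, and they are given as a description.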

How the data were processed

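Polyadenylated RNA of left ventricle in 8 libraries was sequenced with a stranded kit on a NextSeq 500, per the labels' protocols. Reads were aligned with STAR 2.5 to GRCm38 and normalized with edgeR by the authors, per the submitters' processing notes. For counter, annotation, strand use and filters, the sources used here give nothing. The deposited table holds a normalized signal per gene, not whole counts, so no count test was run. The read depth before normalization is not given. The commonest value near the lowest was 0.823 to 1.149, so a value of about 1 was about 1 read. Genes overlapping the 10 members held at most 4.6.

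Groups came from the labels. With limma 3.58.1 in R 4.3.3, log2(value + 1) was fitted with 1 mean per group and a shared spread (4 residual degrees of freedom) over the 16432 genes that reached 1 in 2 or more libraries. In each of 7 comparisons p-values were two-sided and adjusted over all these genes. GC correction subtracted each library's loess trend (span 0.3) of deviations from gene means on the GC content of the longest GENCODE transcript, fitted on genes with a mean of at least 10. GC content was known for 99.8% of the genes tested. The fits and the correction were tested on simulated data. Alternatives were another pseudocount (0.25), other filters, 2 other scalings, a replicate block, fits on just the 4 libraries of a comparison, and omission of each library. Levels per kb used the length given in the table. The named genes were the 10 members and, from each list of other pathway genes, those called or, with none called, the 2 with the smallest p-values in each comparison of 2 groups, with the 3 genes most like Pink1, of which 1 after GC correction is not reported here. Park2 and genes called only after GC correction were added after their values were seen. The members, lists and GC correction were chosen with earlier results of these data known. Promoter windows came from RefSeq (GRCm38.p6).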

Additional observations from a re-analysis of the deposited data

Results flagged for a closer look

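The following pairs of effects ran opposite ways without any overlap of libraries in the 2 settings. How many of all genes showed such a pair was not computed. As deposited, 18% to 27.6% of all genes lay apart in a given direction in a single comparison of 2 groups. Where a gene has a pair by operation and a pair by diet, both come from the same 4 groups. In none did the interaction of operation and diet pass the test (limma, adjusted p in each sentence). Tbk1, a kinase that phosphorylates mitophagy adaptors, was at 0.46 for TAC against sham under SFA and -0.36 under SFA-EAA, and at 0.58 for SFA-EAA against SFA in sham and -0.25 after TAC (interaction adjusted p = 0.862). Ndrg1, a hypoxia-responsive gene, was at 0.37 for TAC under SFA and -0.41 under SFA-EAA, and at 0.29 by diet in sham and -0.49 after TAC (interaction adjusted p = 0.850). The oxygen sensor Egln1 was at -0.09 by diet in sham and 0.13 after TAC (interaction adjusted p = 0.913), and Mtfr1l, a fission regulator, at -0.12 and 0.05 (interaction adjusted p = 0.931). On GC-corrected values Bnip3l was at 0.06 by diet in sham and -0.19 after TAC (interaction adjusted p = 0.708).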

How the results depend on the processing

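Depth and 2 libraries a group limit these results. Leaving out a library leaves its group with 1, which is then assumed to vary like the other groups. Deviations of same-numbered libraries correlated at -0.24 to 0.03 over 11279 genes. These deviations also hold each library's GC trend, so they cannot show whether replicate numbers pair the libraries. The cause of the changes below was not tested. Leaving out libraries after GC correction, and leaving out both libraries with high Myl7, were chosen after seeing the data.

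With the replicate block, genes called numbered 96 for TAC under SFA, 147 for TAC averaged over diets and 0 for TAC under SFA-EAA, diet after TAC and diet averaged over operations, and 0 members were called for TAC averaged (limma; 1 without the block, Pink1). Across settings, genes called were as follows. A minimum value of 10 gave 324 for TAC under SFA, with 1 member (Pink1), 5 for TAC under SFA-EAA, 70 for diet after TAC and 623 for diet averaged. GC correction gave 813, 36, 5, 277, 1009 and 438 for TAC under SFA, TAC under SFA-EAA, diet in sham, diet after TAC, TAC averaged and diet averaged, with 1 member (Pink1) each for TAC under SFA, diet after TAC and diet averaged. The replicate block with GC correction gave 665, 24, 161, 812 and 314 for TAC under SFA, TAC under SFA-EAA, diet after TAC, TAC averaged and diet averaged, 3 for the interaction, and 1 member (Pink1) for TAC under SFA and 1 for diet averaged. Only the 4 libraries compared gave 823 for TAC under SFA with 1 member (Pink1), 970 for diet in sham with 1 member (Bnip3), and 0 for TAC under SFA-EAA and diet after TAC; it cannot be had for the averaged comparisons and the interaction. GC correction also moved the share of higher genes among those called to 51.7% from 66.8% as deposited for TAC under SFA, to 52.6% from 65.4% for TAC averaged, to 55.2% from 25% for diet after TAC and to 60.0% from 40.2% for diet averaged. Quantile normalization moved it to 21.4% for diet averaged. A pseudocount of 0.25 gave 0 for TAC under SFA-EAA and diet after TAC, 57 for diet averaged and 0 members for TAC averaged. No filter gave 0 for TAC under SFA-EAA, diet after TAC and diet averaged, 56 for TAC averaged and 0 members there. Quantile normalization gave 0 for TAC under SFA-EAA, 42 for diet averaged and 0 members for TAC averaged. Median-of-ratios scaling gave 15 for diet after TAC.

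Some directions reversed. With GC correction, and equally with the replicate block added to it, diet in sham turned to -0.03 for Dnm1l, 0.03 for Fis1, -0.03 for Mff and 0.43 for Pink1. Diet after TAC turned to -0.09 for Dnm1l, 0.14 for Fis1, -0.02 for Mff, -0.08 for Bnip3, -0.19 for Bnip3l and -0.02 for Fundc1. Bnip3 turned to 0.03 for TAC under SFA-EAA, and Pink1 to 0.52 for diet averaged. Quantile normalization turned Mfn2 to 0.03 for TAC under SFA-EAA, and median-of-ratios scaling turned Pink1 to 0.03 for diet averaged.

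Leaving out each library in turn, genes called ranged from 0 (without sham SFA replicate 2) to 846 for TAC under SFA, 0 to 269 for TAC under SFA-EAA (highest without TAC SFA-EAA replicate 2), 0 to 1167 for diet in sham, 0 to 2128 for diet after TAC, 39 to 1057 for TAC averaged, 0 to 3582 for diet averaged and 0 to 139 for the interaction. Apart from TAC under SFA-EAA and the interaction, the highest was without TAC SFA-EAA replicate 1. Members called ranged from 0 to 1 for TAC under SFA, diet in sham and TAC averaged, 0 to 2 for diet after TAC and 0 to 5 for diet averaged, again highest without TAC SFA-EAA replicate 1 (Mff and Opa1 after TAC; Opa1, Dnm1l, Fis1, Mff and Bnip3 averaged). With GC correction they ranged from 0 to 2 for TAC under SFA, 1 to 2 for TAC averaged and 0 to 1 for TAC under SFA-EAA, diet in sham, diet after TAC and diet averaged.

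Log2 fold changes that reached or crossed 0 in this way ranged, for TAC under SFA, from -0.23 to 0.07 for Mfn2, -0.16 to 0.07 for Dnm1l, -0.16 to 0.05 for Mff and -0.33 to 0.00 for Fundc1. For TAC under SFA-EAA they ranged from -0.16 to 0.01 for Mfn1, -0.14 to 0.04 for Mfn2, -0.29 to 0.05 for Opa1, -0.45 to 0.09 for Dnm1l, -0.34 to 0.19 for Fis1, -0.35 to 0.04 for Mff, -0.40 to 0.29 for Bnip3 (-0.15 to 0.21 GC-corrected) and -0.30 to 0.06 for Bnip3l. For diet after TAC they ranged from -0.13 to 0.41 for Dnm1l, -0.30 to 0.23 for Fis1, -0.06 to 0.37 for Pink1, -0.22 to 0.47 for Bnip3 (-0.26 to 0.10 GC-corrected) and -0.17 to 0.20 for Bnip3l. Pink1 ranged from -0.11 to 0.10 for diet averaged and from 0.00 to 0.37 for the GC-corrected interaction. Pink1 for TAC averaged passed as reported and under 6 of 17 alternatives, with values from -0.65 to -0.43. Leaving out both libraries with high Myl7 left 0 members called there.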
